A study of Mus musculus with 6 samples.

Results

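The genes of calcium release from, and uptake into, the sarcoplasmic reticulum were followed in the E10.5 mouse embryo heart, at a time when the looped heart tube already beats. They are Ryr2, Atp2a2, Pln, Sln, Casq1, Casq2, Jph1, Jph2, Slc8a1 and Hrc. Probe sets were taken where the platform's annotation gave them exactly 1 gene symbol and that symbol was one of these 10. The rule found 24 of the 45037 probe sets that are not controls, and all 10 of the 18193 named genes. Of the 24, 23 were bright enough to be tested. The hearts came from 3 Rnd3 knockout (KO) and 3 wild-type (WT) embryo samples on the C57BL/6N background, 1 Affymetrix array each. Rnd3, which the labels call RhoE, is a GTP-binding protein that restrains the kinase ROCK1. The knockout is a gene trap present in every tissue, not only in heart muscle, and such embryos die around or soon after this age per the series' design text. KO and WT embryos were collected as littermate pairs per the design text, while the array numbers are not linked to litters in any label. Nothing in the labels says whether an array holds 1 heart or several.

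In heart muscle, calcium entering from outside opens the ryanodine receptor Ryr2, a channel in the sarcoplasmic reticulum, and the released calcium starts contraction. Junctophilins (Jph1, Jph2) hold the reticulum close to the surface membrane, and calsequestrins (Casq1, Casq2) and the histidine-rich protein Hrc bind calcium inside the store. The pump SERCA2, encoded by Atp2a2, refills the store and is restrained by the small membrane proteins phospholamban (Pln) and sarcolipin (Sln), while the sodium-calcium exchanger (Slc8a1) moves calcium out of the cell.

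Values are MAS5 signals, a linear brightness per probe set with every array scaled to the same trimmed mean. A probe set counted as dim below a working limit, each array's 40th percentile, which lay between 44.5 and 52.8. The brightest Rnd3 probe set read 5.89, 12.3 and 121 on KO arrays 1, 2 and 3 and 909, 954 and 862 on WT arrays 1, 2 and 3. KO array 1 was nevertheless closer to the WT arrays in its overall profile (r = 0.980 to 0.981 across 12712 genes) than to KO arrays 2 (0.976) and 3 (0.978). Results are also given without it. Since it was singled out by its likeness to WT in these same measurements, leaving it out widens many differences by construction, and the values without it are a description, not added support. By its brightest probe set, Rnd3 itself was below the limit on KO arrays 1 and 2 and above it on KO array 3. None of the 10 genes passed when a single array other than KO array 1 was left out, where 0% to 0.511% of all genes passed. Xist, which marks female tissue, read 539, 8884 and 28.4 in KO and 10251, 12474 and 11878 in WT. Its part in the results was tested only as a covariate, which rests on KO array 2. Heart muscle itself was plainly present. All 10 cardiomyocyte markers were above the limit on all arrays, and their summed signal was 229489 to 260534 in KO and 247172 to 270273 in WT. In such bulk tissue, fewer cells of a type and less RNA per cell cannot be told apart.

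None of the 10 genes passed the test between KO and WT hearts at an adjusted p of 0.05 (limma, Benjamini-Hochberg over 12712 genes), where 1.27% of all genes did (0.787% higher and 0.488% lower). By sign, 5 had lower values in KO, as did 56.2% of all genes. At an unadjusted p below 0.05 there were 5 of the 10, namely Ryr2, Casq1 and Jph2 with lower and Pln and Casq2 with higher values in KO, against 20.3% of all genes. The groups did not overlap for 4 of the 10 genes (Ryr2, Jph1, Jph2 and Hrc), against 26.3% of all genes. All 4 had lower values in KO, where 15.5% of all genes were lower without overlap. The median log2 fold change of the 10 genes was -0.10, beside -0.04 over all genes tested.

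**Figure D1:**
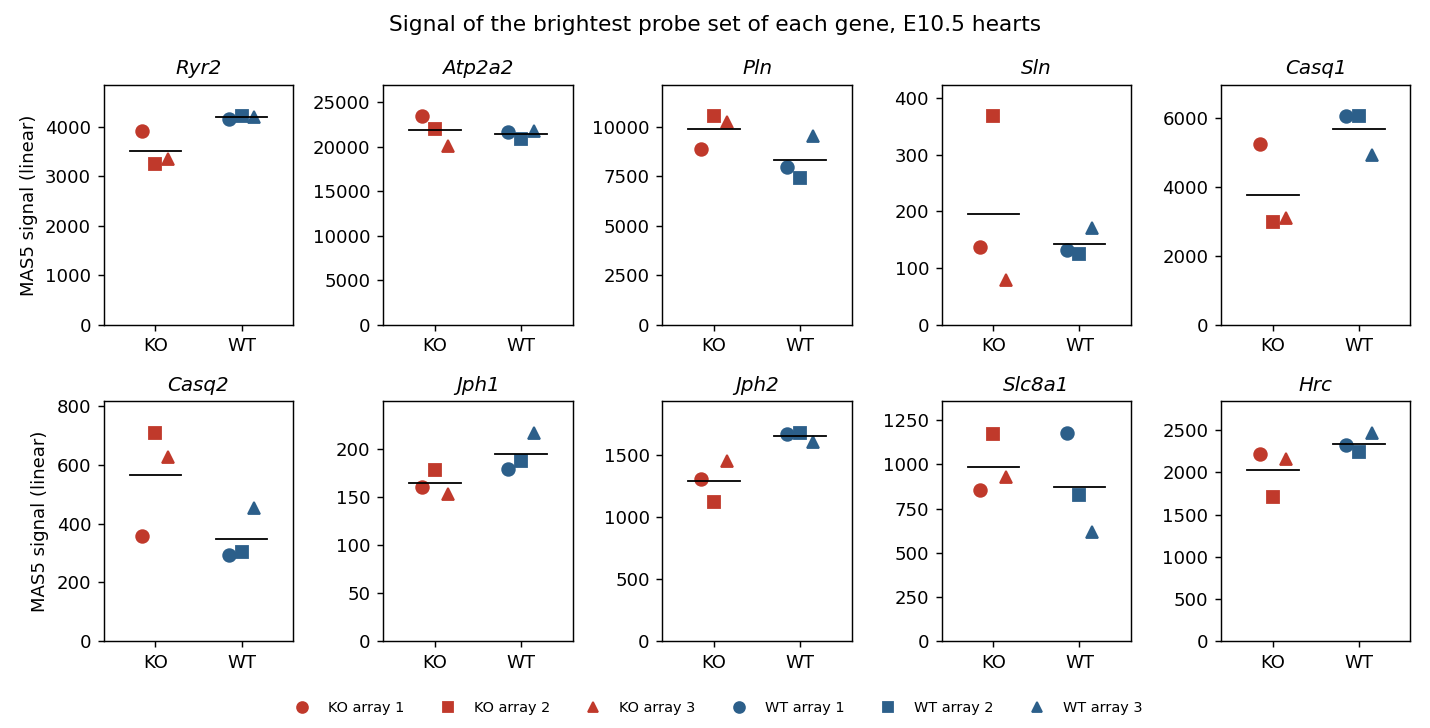
MAS5 signal (linear, each axis from 0) of the brightest probe set of each of the 10 genes on the 3 KO arrays (left, red) and the 3 WT arrays (right, blue); the symbol gives the array number and the bar the mean. Ryr2, Jph1, Jph2 and Hrc are lower on every KO array than on any WT array, while for Casq1 and Casq2 KO array 1 lies within the WT range and KO arrays 2 and 3 lie outside it.

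The release channel gene had lower values on every KO array. The brightest Ryr2 probe set read 3905, 3247 and 3356 on KO arrays 1, 2 and 3, against 4147, 4212 and 4200.3 on WT arrays 1, 2 and 3. The WT arrays lay within a narrow band (4186 ± 34.4, SD, n = 3), and every KO array lay below it (3503 ± 353, SD, n = 3). The log2 fold change was -0.26 (SE 0.09, limma adjusted p = 0.140), a fold of 0.834 with a 95% interval from 0.727 to 0.956. Without KO array 1 it was -0.34 (SE 0.09, limma adjusted p = 0.0419), past the threshold, though tested among all probe sets it missed it (adjusted p = 0.0557). The dimmer Ryr2 probe set read 157, 68.3 and 70.4 in KO and 122, 146 and 74.6 in WT, with overlapping groups.

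The junctophilins had lower values in KO too. Jph2, the main junctophilin of heart muscle, read 1304, 1124 and 1453 in KO against 1671, 1679.6 and 1607 in WT. All 3 KO arrays lay below the WT arrays, KO array 1 included, and the change of -0.36 on the log2 scale (SE 0.11, limma adjusted p = 0.103) was nearly the same without KO array 1 (-0.37, adjusted p = 0.0963). It was -0.56 with log2 Xist as a covariate (adjusted p = 0.0625). The other, dimmer Jph2 probe set read 111, 159 and 134 in KO and 166, 141 and 136 in WT, overlapped between groups and had -0.14. Jph1, the main junctophilin of skeletal muscle, read 160.0, 178 and 153 in KO and 179, 188 and 217 in WT. The groups just failed to overlap, and neither the brighter probe set (-0.24, SE 0.17, adjusted p = 0.454) nor the dimmer one (-0.22) passed. With the Xist covariate the brighter one had -0.12, and with every array centred on cardiomyocyte markers -0.16.

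By brightest probe set, the 2 calsequestrins had the widest differences of the 10 genes, in opposite directions. Casq1, the calsequestrin of fast skeletal muscle, read 5248, 2996 and 3106 on KO arrays 1, 2 and 3, against 6062, 6066 and 4925 on WT arrays 1, 2 and 3. KO arrays 2 and 3 were far below every WT array, but KO array 1 lay above WT array 3. The log2 fold change was -0.63 (SE 0.18, limma adjusted p = 0.0960), a fold of 0.646 with a 95% interval from 0.489 to 0.854, and -0.89 without KO array 1 (SE 0.11, adjusted p = 0.00416).

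Casq2, the cardiac calsequestrin, was nearly a mirror image. Its single probe set read 357, 709.6 and 626 on KO arrays 1, 2 and 3, against 293, 303 and 452 on WT arrays 1, 2 and 3. Again KO arrays 2 and 3 stood outside the WT range and KO array 1 within it. The log2 fold change was 0.66 (SE 0.24, limma adjusted p = 0.168), a fold of 1.58 with a 95% interval from 1.09 to 2.30, and 0.96 without KO array 1 (SE 0.19, adjusted p = 0.0202). The suffix of this probe set marks probes shared by more than 1 transcript, so its signal is less certain than that of the others.

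Within each array, Casq1 minus Casq2 on the log2 scale was 3.88, 2.08 and 2.31 in KO, against 4.37, 4.32 and 3.44 in WT. The difference of -1.29 did not pass (two-sided exact permutation p = 0.2, adjusted p = 0.467 over 7 ratios, where 0.1 is the smallest p that 3 against 3 arrays can give). With log2 Xist as a covariate the log2 fold changes were -0.65 for Casq1 (limma adjusted p = 0.185) and 0.76 for Casq2 (adjusted p = 0.240).

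Hrc, the remaining store protein, read 2218, 1704 and 2161 in KO and 2319.7, 2237 and 2469 in WT. The groups did not overlap, by a small margin, and the log2 fold change was -0.22 (SE 0.11, limma adjusted p = 0.305). Without KO array 1 it was -0.29 (adjusted p = 0.167) and without KO array 2 it was -0.096 (adjusted p = 0.617). Centring on cardiomyocyte markers gave -0.13 and the Xist covariate -0.40 (adjusted p = 0.129).

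**Figure D2:**
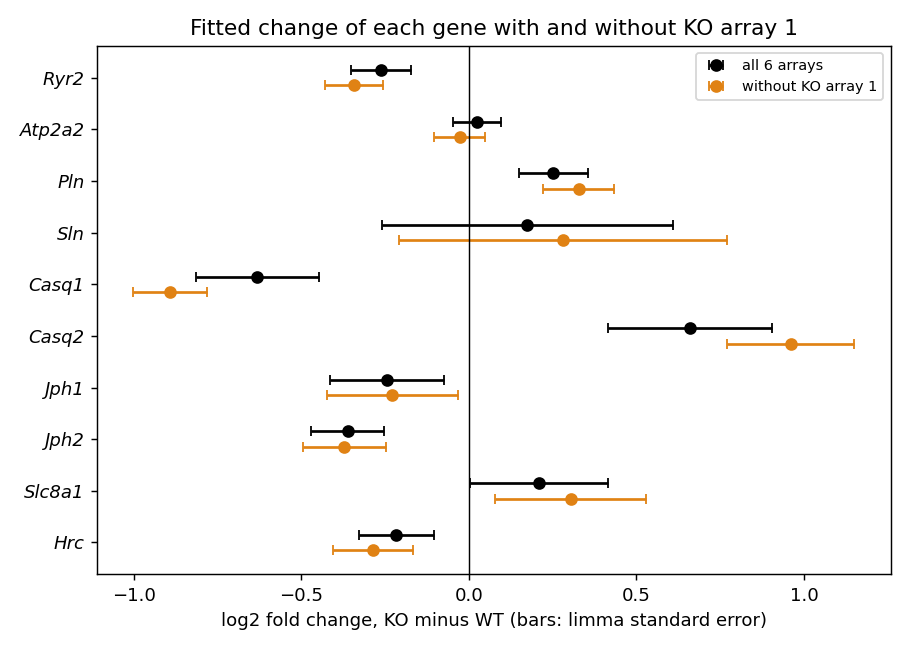
Log2 fold change, KO minus WT, of the brightest probe set of each gene, with limma's standard error as bars, from all 6 arrays (black) and without KO array 1 (orange). Casq1 and Casq2 move apart to -0.89 and 0.96 without that array, Jph2 hardly moves, and Atp2a2 stays near 0 in both fits.

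Across the 6 arrays, the gene whose log2 signal was most like that of Ryr2 was Myh6, the alpha myosin heavy chain (Pearson r = 0.996), followed by A430105J06Rik, Rps25, Cyria and Fam91a1 (r = 0.991 to 0.995). These 6 points share their arrays and scaling, and 271 genes, these 5 included, had r above 0.95, so the likeness is a description only.

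The upstream sequences of Ryr2 and Casq1, with lower values on KO arrays 2 and 3, and of Pln and Casq2, with higher values there, are shown for comparison. They are the 250 bases before each gene's start in RefSeq on GRCm38.p6, given 5′ to 3′ on the gene's strand, and 7 of the 10 genes had an entry in the table. Capitals mark matches, on either strand, to 4 motifs, which are the MEF2 consensus, the CArG box of serum response factor, the E-box CANNTG of basic helix-loop-helix factors and the GATA factor motif GATAA. The Ryr2 window lies at chr13:12106946-12107195 on the minus strand, Casq1 at chr1:172219896-172220145 on the minus strand, Pln at chr10:53337436-53337685 on the plus strand and Casq2 at chr3:102086165-102086414 on the plus strand.
Ryr2: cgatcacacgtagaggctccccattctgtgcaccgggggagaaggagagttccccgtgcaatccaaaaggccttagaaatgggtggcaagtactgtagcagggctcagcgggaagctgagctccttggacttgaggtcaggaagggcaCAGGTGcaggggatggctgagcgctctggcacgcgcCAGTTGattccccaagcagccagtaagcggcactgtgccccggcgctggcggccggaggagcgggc
Casq1: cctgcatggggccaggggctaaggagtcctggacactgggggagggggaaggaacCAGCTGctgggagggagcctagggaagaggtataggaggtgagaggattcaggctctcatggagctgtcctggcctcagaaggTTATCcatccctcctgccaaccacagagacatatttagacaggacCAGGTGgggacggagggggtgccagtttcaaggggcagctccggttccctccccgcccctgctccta
Pln: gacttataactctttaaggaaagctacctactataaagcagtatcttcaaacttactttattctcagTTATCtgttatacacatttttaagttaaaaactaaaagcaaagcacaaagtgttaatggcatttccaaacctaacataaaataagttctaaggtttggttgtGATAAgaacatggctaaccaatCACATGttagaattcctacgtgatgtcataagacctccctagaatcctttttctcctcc
Casq2: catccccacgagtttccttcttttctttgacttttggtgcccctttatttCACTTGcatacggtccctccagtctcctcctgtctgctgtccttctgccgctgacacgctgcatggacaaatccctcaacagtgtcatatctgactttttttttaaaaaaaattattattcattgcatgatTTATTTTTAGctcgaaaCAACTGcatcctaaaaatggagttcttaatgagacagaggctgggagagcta

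Of the windows shown, Casq2 alone held a match to the MEF2 consensus, 69 bases before the start, where 2.92% of the 32851 windows of this length in the table hold one. None of the 4 held a CArG box (1.47% of windows). Ryr2, Casq1 and Casq2 held 2 E-boxes each and Pln 1, a motif found in 66.2% of windows. GATAA occurred 2 times in Pln and 1 time in Casq1, and at least once in 22.6% of windows. A match is a description of these letters, not a site in use.

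For the pump and its regulators, the picture depended on the probe set. The brightest probe set of Atp2a2 read 23452, 22046 and 20083 in KO and 21719, 20843 and 21795 in WT. The groups overlapped fully, at 0.02 on the log2 scale (SE 0.07, limma adjusted p = 0.878), with a 95% interval of the fold from 0.913 to 1.13, and 0.10 with the Xist covariate. The next brightest (1452363_a_at) overlapped as well and had 0.12.

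Another Atp2a2 probe set, 1427250_at, differed from these. It read 7623, 5711 and 5891 in KO against 9635, 9536 and 8481 in WT, without overlap. Tested on its own among 23339 probe sets, of which 0.63% passed, it had -0.53 on the log2 scale (SE 0.11, limma adjusted p = 0.0586). Without KO array 1 it had -0.67 (adjusted p = 0.00756), where 4.11% of probe sets passed. The 3 dimmer Atp2a2 probe sets overlapped, with -0.07, -0.21 and 0.24. The last of these, 1443551_at, was above the limit on only 1 KO array and 2 WT arrays.

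Phospholamban had higher values in KO on all 3 of its probe sets, by very different amounts. The brightest, 1460332_at, read 8867, 10532 and 10222 on KO arrays 1, 2 and 3, and 7986, 7434 and 9509.7 on WT arrays 1, 2 and 3. KO array 1 lay within the WT range, and the log2 fold change was 0.25 (SE 0.10, limma adjusted p = 0.196), or 0.33 without KO array 1 (adjusted p = 0.0845).

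The second Pln probe set, 1450952_at, read 4457, 7783 and 7290.0 in KO against 3632, 3086 and 3917 in WT. Every KO array lay above every WT array, with KO array 1 the lowest of the 3, and the log2 fold change was 0.84 (SE 0.18, limma adjusted p = 0.0615). The third, 1423359_at, read 2199, 5242 and 3827 in KO against 1804, 1462 and 1582 in WT. It too did not overlap and had 1.13 (SE 0.24, limma adjusted p = 0.0611). Without KO array 1 these 2 probe sets had 1.09 (adjusted p = 0.00372) and 1.48 (adjusted p = 0.00306).

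The 3 Pln probe sets are annotated to the same gene, and where they lie along its transcripts was not analysed here. With the mean of the 3, Pln had 0.74 (limma adjusted p = 0.130). Control probes near the 3' and 5' ends of Gapdh, whose ratio follows RNA integrity, gave 0.975, 0.993 and 0.939 in KO and 1.11, 1.09 and 1.13 in WT, without overlap. For Actb the same ratio was 2.22 to 2.54 in KO and 2.35 to 2.62 in WT. Their part in the differences between probe sets was not tested.

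Sarcolipin, an inhibitor of the pump typical of the atria, had 1 tested probe set, above the low-signal limit on all 6 arrays. It read 137, 368 and 79.0 in KO and 131, 124 and 170 in WT, and KO array 2 alone was high. The fitted value of 0.17 (log2, SE 0.43, limma adjusted p = 0.855) turned to -0.43 without KO array 2. With log2 Xist as a covariate the value was 1.37 (limma adjusted p = 0.0623). That fit rests on KO array 2, the array with the high Sln value, so it is not a separate estimate. The other Sln probe set was below the limit on all 6 arrays and was not tested.

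As a ratio within each array, Pln minus Atp2a2 on the log2 scale differed between KO and WT by 0.23 with the brightest Pln probe set (two-sided exact permutation p = 0.2, adjusted p = 0.467 over 7 ratios). With the other Pln probe sets it was 0.82 and 1.11 (exact permutation p = 0.1 each, the smallest possible, a choice made after seeing the data). The ratios of Sln and of Slc8a1 to Atp2a2, of Casq2 and Jph2 to Ryr2 and of Jph1 to Jph2 differed by 0.15, 0.19, 0.92, -0.10 and 0.12, with exact permutation p from 0.2 to 1.

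The exchanger Slc8a1 gave no single answer. Its brightest probe set read 856, 1171 and 926 in KO and 1178, 829 and 615 in WT, with wide and overlapping groups (0.21, SE 0.20, limma adjusted p = 0.605). With the Xist covariate it had 0.38. The next, 1425817_a_at, was level at -0.0015. Another, 1440201_at, read 318, 199 and 186 in KO against 383, 445 and 334 in WT, with no overlap. It had -0.76 (SE 0.21, limma adjusted p = 0.102), and -0.9999 without KO array 1 (SE 0.17, adjusted p = 0.0169). The dimmest had -0.31 and overlapped.

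**Figure D3:**
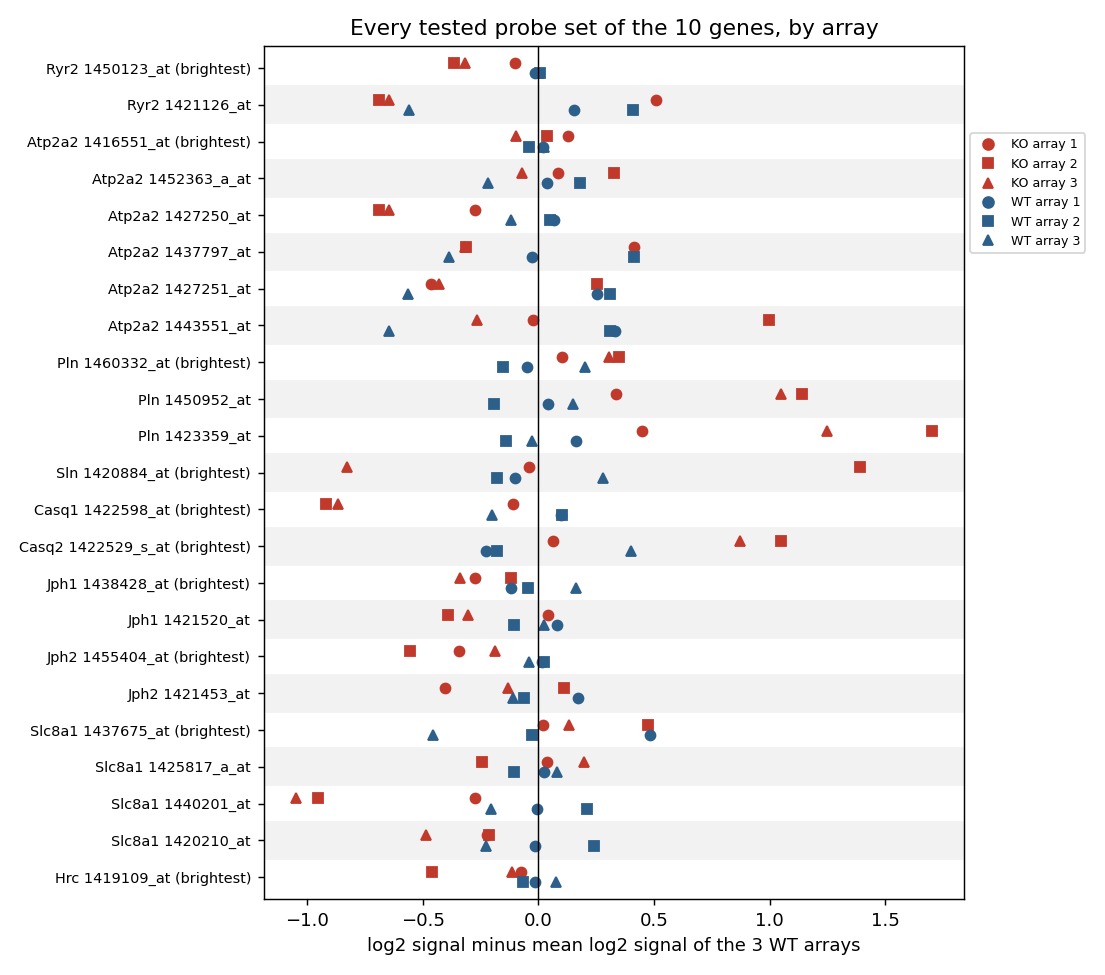
Each tested probe set of the 10 genes (rows), with the log2 signal of every array minus the mean log2 signal of the 3 WT arrays; KO arrays are red and upper, WT arrays blue and lower in each row, and symbols give the array number. KO arrays 2 and 3 lie far from the WT arrays for 2 Pln probe sets, Casq1, Casq2 and single probe sets of Atp2a2 and Slc8a1, while KO array 1 lies nearer to or among the WT arrays there.

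Over all 23 tested probe sets of the 10 genes, 14 had lower and 9 higher values in KO. The groups did not overlap for 8 of them, 6 lower in KO (13.5% of all probe sets) and 2 higher (10.4% of all probe sets). None passed limma's test with all 6 arrays, and 9 had an unadjusted p below 0.05, against 17.8% of all probe sets. Without KO array 1, 6 of the 23 passed, 3 lower (Casq1, Atp2a2 1427250_at and Slc8a1 1440201_at) and 3 higher (Casq2 and 2 Pln probe sets), against 4.11% of all probe sets. Counted by gene, 3 of the 10 passed without KO array 1 (Ryr2, Casq1 and Casq2), against 7.21% of all genes. Probe sets of 1 gene report on the same gene, so these are not independent counts.

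The other genes of the pathway were taken from 4 lists, none of which had a member past the test. Of 20 tested partners of calcium release, 12 had lower and 8 higher values in KO (median -0.04), and 3 had an unadjusted p below 0.05 in limma's test. Over all genes, 56.2% had lower values and 20.3% an unadjusted p below 0.05, which is also the background for the lists that follow. Sorcin (Sri), which binds and quiets the ryanodine receptor, read 4501, 4442 and 5301 in KO against 3256, 3622 and 3657 in WT. All KO arrays were higher, and the value of 0.43 on the log2 scale (SE 0.09, limma adjusted p = 0.0535) just missed the threshold. Without KO array 1 Sri passed (0.47, adjusted p = 0.0296), as did 7.21% of all genes. The calmodulin-dependent kinase genes Camk2g (-0.26) and Camk2a (-0.29) and the reticulum protein gene Srl (-0.20) had the next lowest p. Triadin (Trdn), which links calsequestrin to the channel, had 0.06 and did not differ beyond the spread.

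Of 11 tested genes of calcium uptake and extrusion, 4 had lower and 7 higher values (median 0.14), with 3 at an unadjusted limma p below 0.05. Atp2a1, the pump of fast skeletal muscle, read 228, 147 and 136 on KO arrays 1, 2 and 3, against 263, 226 and 259 on WT arrays 1, 2 and 3. KO array 1 reached the WT range and the other 2 KO arrays lay below it, as for Casq1. It had -0.59 (SE 0.21, limma adjusted p = 0.149). With KO array 1 left out Atp2a1 had -0.82 (adjusted p = 0.0279), where 7.21% of all genes passed. The phosphatase catalytic subunit gene Ppp1ca had 0.24, the plasma membrane pump gene Atp2b4 0.49 and the exchanger gene Slc8a3, dim on 2 of the 3 WT arrays, 1.17, none past the test.

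Markers of skeletal muscle precursors were looked at beside Casq1 and Atp2a1. Of 8, Myf5, Pax7 and Chrna1 were below the limit on all 6 arrays, and Myod1, Myog and Myh3 were above it on at most 2. Tnni2 (-0.20) and Tnnt3 (-0.01), fast skeletal troponin genes, were above it on all arrays. The summed signal of the 8 was 1381, 1541 and 1058 in KO against 1508, 1487 and 1421 in WT. Most of that sum was Tnni2 (826 to 1169 in KO and 1161 to 1201 in WT). The part of these cells in the values of Casq1 and Atp2a1 was not tested.

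Of 10 store and store-entry genes, 7 had lower and 3 higher values (median -0.05), with none at an unadjusted limma p below 0.05. The lumenal calcium-binding chaperone gene Calr (-0.27), the mitochondrial uniporter gene Mcu (-0.20), the chaperone gene Hspa5 (-0.13) and Canx (0.10) had the lowest p. Of 6 genes of the trigger channel and T-tubule, 3 had lower and 3 higher values (median 0.0024), 2 at an unadjusted limma p below 0.05. The channel gene Cacna1d read 363, 271 and 303 in KO against 483, 447 and 413 in WT. The groups did not overlap, with -0.53 (SE 0.14, limma adjusted p = 0.0821). With KO array 1 left out it had -0.64 (adjusted p = 0.0295), where 7.21% of all genes passed. Caveolin 3 (Cav3) had 0.30, while Cacna1c, the main trigger channel of heart muscle, had 0.09 and Cacna2d1 -0.09.

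**Figure D4:**
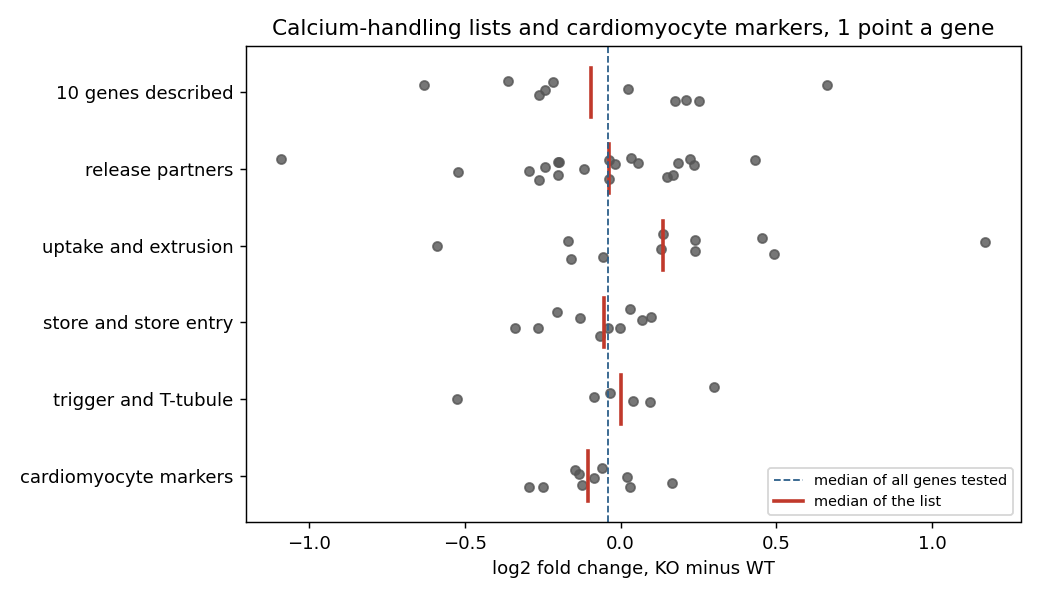
Log2 fold change, KO minus WT, of each tested gene of the 10 described here, of 4 lists of other calcium-handling genes and of 10 cardiomyocyte markers; red bars are list medians and the dashed line is the median of all genes tested, -0.04. The list medians lie between -0.10 and 0.14, and single genes such as Casq1, Casq2, Sri, Atp2a1 and Cacna1d lie away from them.

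Cardiomyocyte markers gave the setting for these values. Of the 10, 7 had lower and 3 higher values (median -0.10), with Myh6 (-0.25), Nkx2-5 (-0.29), Actc1 (-0.13) and Tnni1 (0.16) at the lowest p, 1 at an unadjusted limma p below 0.05 and none past the test. With every array centred on these markers, Ryr2 had -0.17, Jph2 -0.27, Casq1 -0.54, Casq2 0.75 and Pln 0.34, none past the test. Ventricular markers summed to 64825 to 69347 in KO and 67241 to 72502 in WT, mostly Myl2 and Myl3. Without overlap, Myl2 was lower in KO (-0.14, limma adjusted p = 0.237) and Irx4 higher (0.47, adjusted p = 0.167). Hey2 (0.16) and Myl3 (0.01) overlapped. Atrial markers summed to 60377 to 63862 in KO and 58421 to 61946 in WT, mostly Myl7 and Nppa. That sum says little about the other atrial markers and was not taken as a measure of atrial tissue. The atrial markers Nr2f1, Nr2f2 and Tbx5 were lowest on KO array 3 (583, 696 and 793, against lowest values of 2195, 1766 and 954 among the WT arrays), the array on which Sln was also lowest. The other two atrial markers did not follow them, since Nppa was highest on KO array 3 (27483) and higher in KO without overlap (0.25, limma adjusted p = 0.132), and Myl7 was lowest on KO array 2. All 7 liver and yolk sac endoderm markers had lower mean log2 values in KO, 4 at an unadjusted limma p below 0.05 and 3 without overlap (Alb, Afp and Hnf4a). Of these Alb passed (-1.97, limma adjusted p = 0.049997), while Afp had -4.89 (adjusted p = 0.125) and Hnf4a -1.11 (adjusted p = 0.159). Alb and Hnf4a were above the limit on only 1 KO array each, and Afp read 216, 1074 and 2.78 in KO. The sizes of these 3 changes thus rest in part on values below the limit. Their summed signal was 603, 1957 and 412 in KO and 1605, 3309 and 7451 in WT, with overlap. Of 4 tested macrophage markers Lyz2 passed as higher (1.38, limma adjusted p = 0.0374). The other tested ones, Csf1r (-0.017), Adgre1 (0.017) and Cd68 (0.088), did not differ beyond the spread, and C1qa was too dim to be tested. None of 25 tested markers of smooth muscle, endothelium, cushion mesenchyme, epicardium, neurons or erythroid cells passed limma's test, with 5 at an unadjusted p below 0.05, close to the share over all genes. The part of these cell types in the calcium genes' values was not tested.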

How the data were processed

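The deposited table holds 1 signal intensity for each probe set and array, on a linear scale, for 6 arrays (3 KO, 3 WT) grouped by the genotype in their labels. Per the submitters' processing notes the tools were MAS5 and Affymetrix Expression Console. Versions and settings: not given in the sources used here. Trimming 2% at each end gave a mean of 500.0 on every array. Which arrays share a litter is not given in the labels, so the fit is unpaired and p-values measure the spread between these arrays, whose number limits the precision. The 64 control probe sets were left out; of the others, 34945 had 1 gene symbol, 932 several and 9160 none here. Log2 signals were used, each gene standing for its brightest probe set by mean, if above each array's 40th percentile on at least 3 arrays. KO minus WT was fitted over 12712 genes with limma 3.58.1 (R 4.3.3; lmFit, then eBayes with trend), adjusted by Benjamini-Hochberg at a threshold of 0.05; errors are limma's standard errors. The procedure was also run on simulated data with independent noise for each gene and array. That run held no outlying array, so it does not cover a case like KO array 1. Alternatives covered scaling, filter, probe set choice, variance model, covariates and leaving out each array; probe sets without each array and the ratio of each Pln probe set were added after seeing the data. The genes, lists and tests were chosen with earlier results of these data known. Named are all 10 genes, in each calcium list and for cardiomyocytes up to 4 genes with the lowest p, and the 5 genes most like Ryr2. Trdn and markers of other cell types were named after their values were seen. Deviations of same-numbered arrays from their group means correlated at 0.0182, 0.0573 and 0.0150, and those of arrays of unlike number at -0.0371 to 0.0206. These small values do not settle the pairing. No label links the numbers to litters, so they were not taken as pairs. Promoter sequences are RefSeq's on GRCm38.p6. Figures were drawn with matplotlib 3.10.9.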

Additional observations from a re-analysis of the deposited data

How the results depend on the processing

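The count of the 10 genes past the threshold was 0 with all arrays and stayed 0 under most alternatives. It was 1 with array weights (Casq1, against 4.26% of all genes), with the replicate number as a block (Casq1, adjusted p = 0.0419, against 1.49%) and at an adjusted p below 0.1 (Casq1, against 6.33%), and ranged from 0 to 3 when 1 array was left out, with 3 without KO array 1. Of the partner genes, 0 passed with all arrays. Sri was the 1 that passed with quantile normalization, log2(signal + 50), the stricter filter, robust eBayes, array weights and the replicate block (limma adjusted p from 0.0221 to 0.0486). In those fits 1.49% to 4.26% of all genes passed. At an adjusted p below 0.1, 2 passed (Sri and Cacna1d), against 6.33% of all genes. Leaving out 1 array gave 0 to 3 of the 47 tested partner genes. The 3 (Sri, Atp2a1 and Cacna1d) passed without KO array 1, where 7.21% of all genes did. Over all genes 162 passed, 61.7% of them higher in KO. The count was 83 (80.7% higher) with median centring, 11 (90.9% higher) with centring on cardiomyocyte markers, 1 without the filter, 296 with the stricter filter, 0 with a gene's probe sets averaged, 1 without the intensity trend, 542 with array weights, 6 with the Xist covariate and 805 at an adjusted p below 0.1. It ranged from 0 to 916 when 1 array was left out. The KO arrays 1, 2 and 3 left out in turn gave 916, 65 and 2, and the WT arrays 1, 2 and 3 gave 0, 0 and 4. The block moved it to 189. Embryos were littermate pairs per the design text, but the labels do not link the numbers to litters. By deviations from the group means, WT arrays 2 and 3 correlated best with their own number (0.0573 and 0.0150). WT array 1 did not (0.0182, against 0.0206 with KO array 3). These small values do not settle whether the numbers are pairs. Atp2a2 (0.02) reversed to -0.021 with quantile normalization, -0.074 with its probe sets averaged, and -0.53, -0.21 and -0.072 in other probe sets. With 1 array left out it ranged from -0.028 (without KO array 1) to 0.084. Slc8a1 (0.21) reversed to -0.21 averaged and -0.31, -0.0015 and -0.76 in other probe sets. With 1 array left out it ranged from -0.019 (without WT array 3) to 0.45. Sln (0.17) reversed to -0.13 with array weights and ranged from -0.43 (without KO array 2) to 0.68 with 1 array left out. The signs of the other 7 genes held under every alternative run. The cause of these changes was not tested. With 1 array left out, the within-array ratios ranged from -0.45 to 0.59 for Sln to Atp2a2, -0.055 to 0.42 for Slc8a1 to Atp2a2, -0.22 to -0.028 for Jph2 to Ryr2 and -0.043 to 0.25 for Jph1 to Jph2. With probe sets averaged, Slc8a1 to Atp2a2 was -0.14 and Jph2 to Ryr2 0.017. Sln did not reach the stricter limit and has no value there.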
